A study of Homo sapiens with 12 samples.

Results

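Lactate export and lactate dehydrogenase genes were followed across 12 libraries of MDA-MB-231, an established human cell line of triple-negative breast cancer. The genes were those of the monocarboxylate transporters MCT4 (SLC16A3) and MCT2 (SLC16A7), the transporter chaperone basigin (BSG), both main lactate dehydrogenase subunits (LDHA and LDHB) and the mitochondrial pyruvate carrier subunit MPC1. They were taken by symbol, and 6 of 6 were found among the 6777 genes tested. Cells had received DMSO, the solvent, or 10 nM AZD0095, an MCT4 inhibitor, for 4 h. Transcript levels were measured by RNA-seq and the mRNA fragments covered by ribosomes (footprints) by ribosome profiling, with 3 DMSO and 3 AZD0095 libraries for each assay. For the RNA libraries, the titles say total RNA but the molecule field says polyA RNA, so it is unsettled which RNA the levels, and the ratios of footprints to RNA, refer to. The labels name no genetic change and no further agent in either group apart from cycloheximide in the lysates for ribosome profiling. The study's question, from its title, is how lactate that accumulates in the cells acts on transcription and translation.

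As background, glycolysis ends in pyruvate, and lactate dehydrogenase interconverts pyruvate and lactate while it interconverts NADH and NAD+. The enzyme is a tetramer of LDHA and LDHB subunits, and tetramers rich in LDHA are usually linked to lactate production, those rich in LDHB to lactate use. MCT4 carries lactate out of glycolytic cells together with a proton and needs basigin to reach the plasma membrane, whereas MCT2 is a high-affinity transporter known mainly for uptake. MPC1 forms the mitochondrial pyruvate carrier with MPC2, which gives pyruvate its route to oxidation instead of lactate.

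LDHA and SLC16A3 are textbook targets of the hypoxia-inducible factors, and LDHA is also one of MYC. The bases before their annotated start sites are therefore shown, with LDHB for comparison. Capitals mark each ACGTG, the core of many hypoxia response elements, on either strand (CACGT on the other). CACGTG, the E-box that MYC and MAX bind, holds ACGTG on both strands, and overlapping matches were counted as 1 site. Sequences are from RefSeq on GRCh38.p14 and run 5′ to 3′ along the gene's strand.
LDHA, chr11:18394313-18394562, plus strand: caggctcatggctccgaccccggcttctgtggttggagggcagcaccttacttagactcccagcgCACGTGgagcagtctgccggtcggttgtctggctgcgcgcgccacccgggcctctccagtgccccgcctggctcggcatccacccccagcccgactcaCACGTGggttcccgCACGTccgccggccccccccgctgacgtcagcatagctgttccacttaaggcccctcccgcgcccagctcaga
SLC16A3, chr17:82228792-82229041, plus strand: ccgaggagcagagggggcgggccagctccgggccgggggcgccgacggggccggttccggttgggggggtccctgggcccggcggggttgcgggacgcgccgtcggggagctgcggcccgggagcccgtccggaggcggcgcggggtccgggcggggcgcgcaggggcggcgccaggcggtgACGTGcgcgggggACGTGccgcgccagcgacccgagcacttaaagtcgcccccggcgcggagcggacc
LDHB, chr12:21657843-21658092, minus strand: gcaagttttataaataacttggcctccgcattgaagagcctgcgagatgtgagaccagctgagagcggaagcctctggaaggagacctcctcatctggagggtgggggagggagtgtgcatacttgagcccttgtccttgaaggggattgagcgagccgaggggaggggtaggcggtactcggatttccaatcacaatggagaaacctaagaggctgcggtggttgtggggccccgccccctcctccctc

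The LDHA window held 3 sites, 2 of them CACGTG, and the SLC16A3 window held 2. Of 35116 windows of 250 bases before annotated starts in the genome, 18.5% held at least 1 such site, 2.61% at least 2 and 0.35% at least 3. By gene, taking the window with the most sites as for the members, the shares were 21.7%, 3.2% and 0.436% of 27305 genes. The windows of LDHB, MPC1 and SLC16A7 held 0 and that of BSG, at chr19:572346-572595, held 1, a CACGTG. For the genes with several annotated starts, SLC16A3 (5), SLC16A7 (2), BSG (2) and LDHA (2), the window with the most matches was taken and the others held 0. Which start these cells use was not measured, and a match describes letters only.

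The genes spanned most of the range of transcript levels. Levels are FPKM values, that is fragments scaled to a length for each gene and to library size. Which length was used is not given, so genes are compared on that scale only. In DMSO, LDHA ranked 30th of the genes listed at 1215 ± 53.1 FPKM (SD, n = 3) and LDHB 140th at 454 ± 26.3 FPKM. BSG followed at 294 ± 22.1 FPKM, SLC16A3 at 98.4 ± 9.92 FPKM and MPC1 at 33.6 ± 2.02 FPKM. SLC16A7 was near the bottom, rank 6599, at 3.47 ± 0.0581 FPKM. Each step in this order was larger than the spread between libraries, from a 1.54-fold gap between LDHB and BSG to a 9.70-fold gap between MPC1 and SLC16A7, and no neighbours overlapped in either treatment. SLC16A1 and MPC2, the genes of the transporter MCT1 and of the carrier's second subunit, were looked for but were not among the genes listed, so they were not analysed here.

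**Figure D1:**
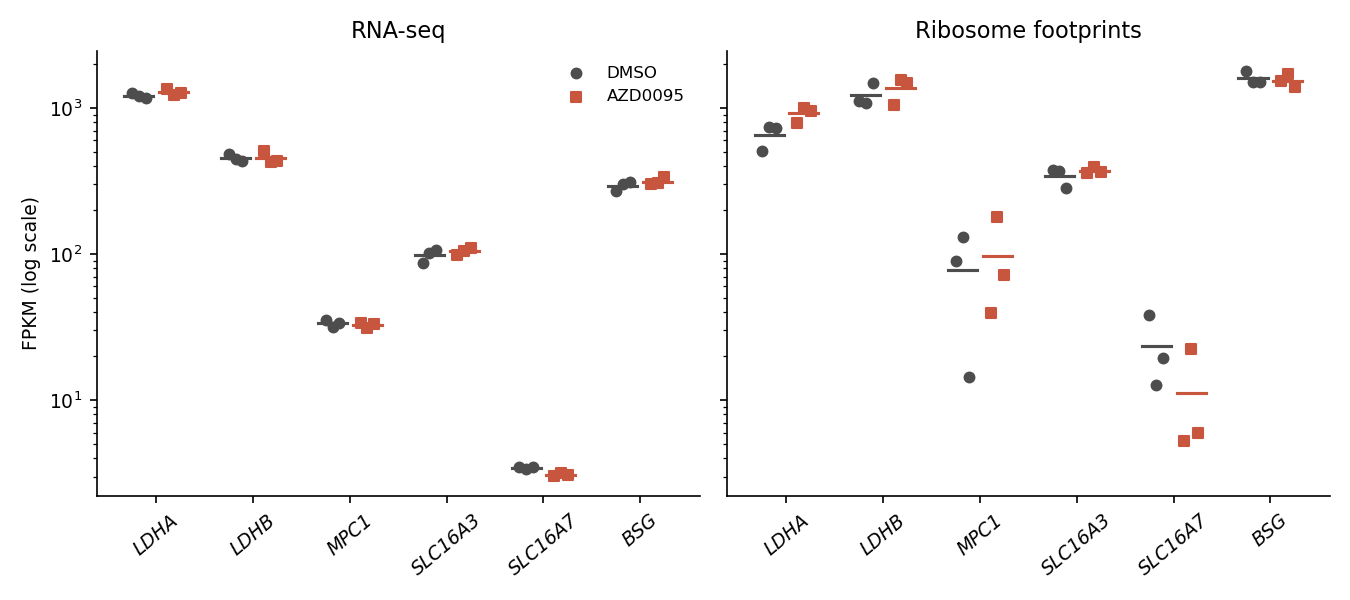
RNA and footprint levels of the 6 genes in FPKM on a log axis, with a point for each library and a bar at each group mean. LDHA is highest in RNA at a mean of 1215 FPKM in DMSO, while BSG is highest in footprints at 1594 FPKM, and SLC16A7 is lowest in both assays.

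Footprint FPKM put the same genes in another order. BSG was highest in DMSO at 1594 ± 167 FPKM (SD, n = 3), followed by LDHB at 1224 ± 221 FPKM and LDHA at 657 ± 130 FPKM. SLC16A3 stood at 343 ± 53.8 FPKM, MPC1 at 78.2 ± 58.7 FPKM and SLC16A7 at 23.6 ± 13.4 FPKM. The ranges of MPC1 and SLC16A7 overlapped in DMSO, and those of BSG and LDHB overlapped in AZD0095. The remaining neighbours did not overlap in either treatment. Few reads lay behind the footprint values. The steps between FPKM values gave an implied 107087 to 192324 reads per DMSO library and 141122 to 501351 per AZD0095 library, a mean 2.03 times higher with AZD0095. That depth left 161 to 696 reads per kilobase on BSG and 62.8 to 481 on LDHA, but 0.747 to 4.84 on SLC16A7. These read numbers rest on an assumption about the lengths used, given with the processing. For RNA the values show no such steps, so its depth is unknown.

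The lactate transporters came first in the comparison of treatments. SLC16A3 RNA was at 87.2, 102 and 106 FPKM in DMSO replicates 1, 2 and 3 and at 98.2, 105 and 110 FPKM in AZD0095. The groups overlapped, with the replicate 1 library lowest in each. On the log2(FPKM + 1) scale, used for each fold change here, AZD0095 was 0.09 ± 0.08 above DMSO (SE; adjusted p = 0.56 by limma), with a 95% interval of 0.934 to 1.21-fold. The added 1 makes changes of weakly expressed genes look smaller than they are. SLC16A3 footprints were at 376, 373 and 281 FPKM in DMSO and at 357, 394 and 363 FPKM in AZD0095. These also overlapped, with DMSO replicate 3 the lowest library. Their log2 fold change was 0.12 ± 0.24 (limma adjusted p = 0.93), with an interval of 0.761 to 1.56-fold. In bulk RNA a change in the number of cells that carry a transcript and a change in RNA per cell cannot be told apart.

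SLC16A7 was the only one of the 6 genes whose RNA groups did not overlap. Its RNA was at 3.48, 3.40 and 3.51 FPKM in DMSO and at 3.04, 3.17 and 3.10 FPKM in AZD0095, so each AZD0095 library lay below each DMSO library. The difference did not pass the test, at -0.12 ± 0.08 on the log2 scale (SE; adjusted p = 0.39 by limma), or -0.16 with a pseudocount of 0.01 FPKM. Over all genes, 11.5% had AZD0095 libraries that lay wholly below the DMSO libraries in RNA. SLC16A7 footprints were at 38.5, 12.7 and 19.4 FPKM in DMSO and at 5.30, 22.3 and 5.96 FPKM in AZD0095. The groups overlapped through AZD0095 replicate 2, and the log2 fold change was -1.15 ± 0.67 (limma adjusted p = 0.72). It was -0.74 without DMSO replicate 1, -1.75 without AZD0095 replicate 2 and -0.40 without replicate 1 of both treatments. At under 5 reads per kilobase in each library, the interval ran from 0.164 to 1.24-fold.

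BSG RNA was at 269, 302 and 311 FPKM in DMSO and at 302, 304 and 334 FPKM in AZD0095. Replicate 1 was again the lowest library of each treatment, and the groups overlapped. AZD0095 was 0.09 ± 0.07 above DMSO on the log2 scale (SE; adjusted p = 0.45 by limma), with an interval of 0.958 to 1.19-fold. BSG footprints were at 1787, 1500 and 1496 FPKM in DMSO and at 1522, 1699 and 1389 FPKM in AZD0095. They overlapped, with an interval of 0.746 to 1.25-fold around a log2 fold change of -0.05 ± 0.17 (limma adjusted p = 0.96). This was the narrowest footprint interval among the 6 genes.

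Among the enzyme subunits, LDHA footprints lay higher in each AZD0095 library than in each DMSO library but were not called. LDHA footprints were at 507, 735 and 728 FPKM in DMSO and at 792, 998 and 959 FPKM in AZD0095. The log2 fold change was 0.49 ± 0.22 (SE), or 1.41-fold with an interval of 1.02 to 1.95-fold. Its unadjusted p in limma was 0.042 and its adjusted p 0.63. AZD0095 footprint libraries lay wholly above the DMSO libraries for 7.19% of all genes. Left without each library in turn, the log2 fold change of LDHA footprints ran from 0.32 (without DMSO replicate 1) to 0.59. The AZD0095 footprint libraries were deeper on average but not each of them. AZD0095 replicate 1 had an implied 141122 reads and DMSO replicate 3 had 192324. The part of depth in the LDHA footprint difference was not tested. LDHA RNA was at 1268, 1214 and 1162 FPKM in DMSO and at 1346, 1229 and 1267 FPKM in AZD0095. These groups overlapped, and the log2 fold change was 0.08 ± 0.05 (limma adjusted p = 0.44), with an interval of 0.968 to 1.15-fold.

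LDHB RNA was at 482, 449 and 430 FPKM in DMSO and at 506, 423 and 433 FPKM in AZD0095. Both means were 454 FPKM, and the interval of the difference was 0.885 to 1.13-fold (limma adjusted p = 0.99). LDHB footprints were at 1109, 1084 and 1478 FPKM in DMSO and at 1049, 1557 and 1478 FPKM in AZD0095. The groups overlapped throughout, with a log2 fold change of 0.15 ± 0.21 (limma adjusted p = 0.90). In RNA the replicate 1 library of each treatment was the highest for LDHA and LDHB and the lowest for SLC16A3 and BSG. That split runs across treatments, and its source was not tested.

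MPC1 RNA was at 35.6, 31.6 and 33.6 FPKM in DMSO and at 33.8, 31.1 and 33.1 FPKM in AZD0095. The groups overlapped, with an interval of 0.872 to 1.08-fold (limma adjusted p = 0.76). MPC1 was the only one of the 6 genes whose footprint values came to whole reads, taken as the smallest whole numbers that matched every library. These implied counts were 4, 5 and 1 reads in DMSO and 2, 14 and 13 in AZD0095. The single implied read of DMSO replicate 3 stood for 14.5 FPKM. Its exact Poisson interval of 0.367 to 80.7 FPKM covers counting error only. MPC1 footprints were not called between treatments, with an interval of 0.457 to 4.44-fold (limma adjusted p = 0.91).

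**Figure D2:**
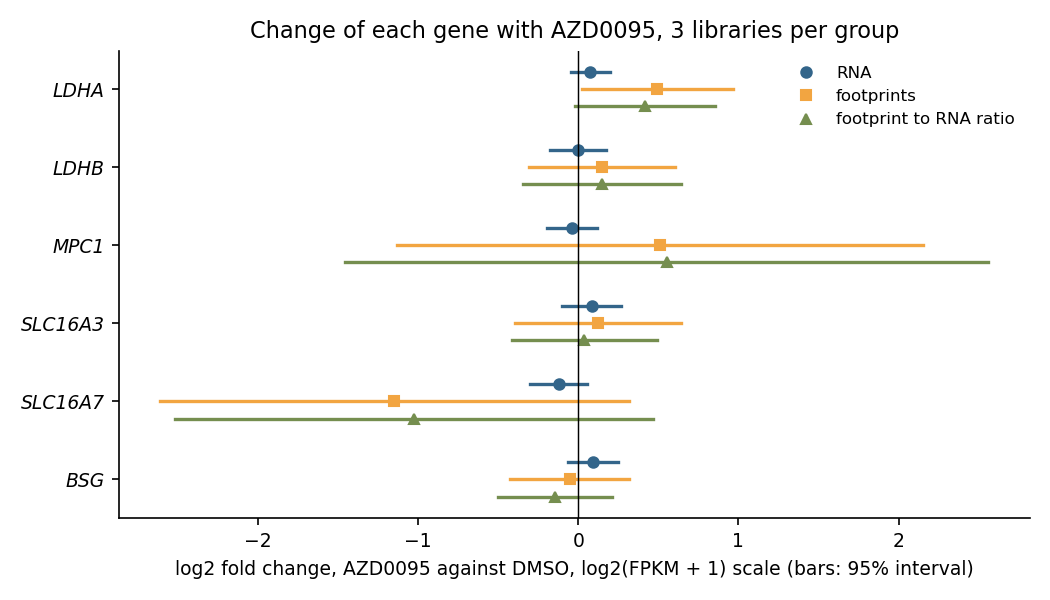
Log2 fold change of AZD0095 over DMSO for the 6 genes in RNA, footprints and translational efficiency, with bars for the 95% interval from limma. The RNA intervals all include 0, and among footprints only that of LDHA, at 0.49, does not, before adjustment over genes.

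In all, limma called 0 of the 6 genes in RNA, where 8.04% of all genes were called, and 0 of 6 at an unadjusted p under 0.05 against 24.2% of all genes. In footprints 0 of 6 were called by limma and 0.0% of all genes. At an unadjusted p under 0.05 there was 1 of the 6, LDHA, against 7.82% of all genes. The median log2 fold change of the 6 genes was 0.04 in RNA and 0.14 in footprints, against 0.01 and 0.04 over all genes. The groups did not overlap for 1 of the 6 genes in RNA, against 29.2% of all genes (17.7% higher and 11.5% lower), and for 1 of the 6 in footprints, against 13.0% of all genes (7.19% higher and 5.77% lower).

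The ratio of footprints to RNA, taken as translational efficiency, was lowest for LDHA. The sources used here do not give the lengths behind the FPKM values of either assay, so the ratio is read by its rank among genes and not by its absolute value. Lengths that differ between the assays by an amount particular to each gene would move the ranks and percentiles too. That was not tested. In DMSO the LDHA ratio was 0.533, a log2 value of -0.91 ± 0.18 (SE), which placed it at percentile 3.6 of all genes. BSG was at percentile 86.7 with a ratio of 5.41, SLC16A3 at 72.0 with 3.47 and LDHB at 59.3 with 2.67, while the median gene had 2.21. MPC1 and SLC16A7, with few reads, had standard errors of 0.98 and 0.47 on the log2 scale. LDHA was also below each of the 17 listed genes of the route from glucose to pyruvate, of which the lowest was GAPDH, the glyceraldehyde phosphate dehydrogenase, at 0.653. LDHB lay above 11 of those 17 genes.

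In AZD0095 the LDHA ratio was 0.712, at percentile 5.5. The change of the ratio with treatment, the assay by treatment interaction, was 0.42 ± 0.20 on the log2 scale (SE, limma unadjusted p = 0.059, adjusted p = 0.59). Without footprint DMSO replicate 1 it was 0.24. SLC16A3 was at 0.04 ± 0.21, BSG at -0.15 ± 0.17 and LDHB at 0.15 ± 0.23. Limma called 0 of the 6 genes and 0.0% of all genes for this interaction, and 0 of 6 had an unadjusted p under 0.05, against 8.53% of all genes.

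**Figure D3:**
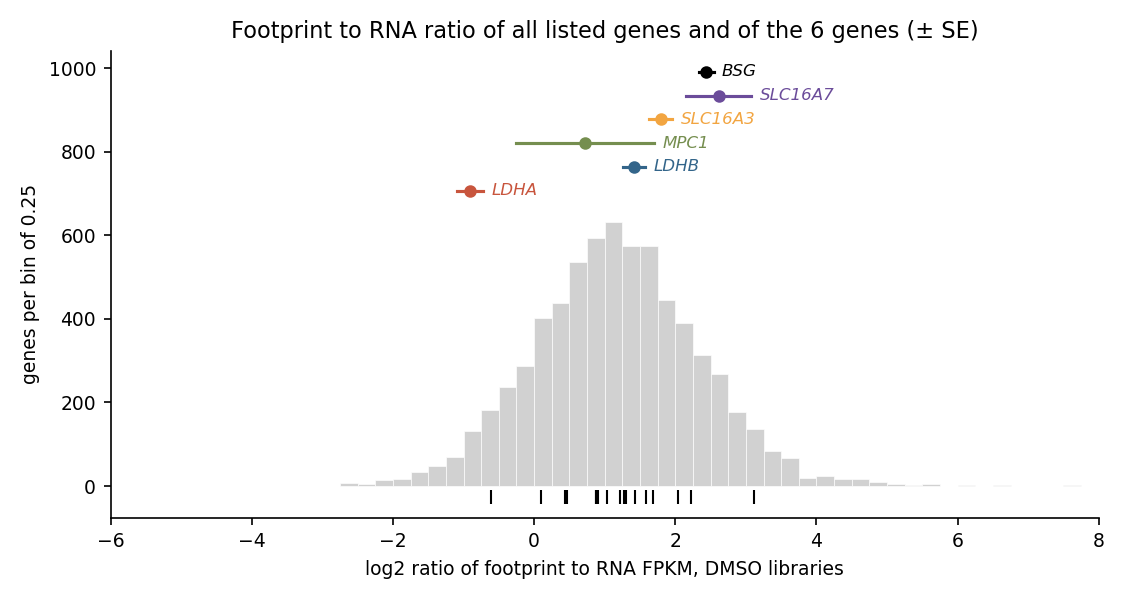
Distribution of the log2 ratio of footprints to RNA over all genes in DMSO, with the 6 genes marked. LDHA, at -0.91, lies at percentile 3.6, and BSG, at 2.44, at percentile 86.7.

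Reads shared with pseudogenes can move either assay. RefSeq names 6 pseudogenes after LDHA and 3 after LDHB, and 0 after the other members. Among the 232 genes with 6 or more such pseudogenes 8.19% had a ratio below that of LDHA, against 3.43% of the 5284 genes with 0, while their median ratio was higher, 2.72 against 2.18. The part of pseudogenes in the LDHA ratio was not tested. RefSeq also names an antisense gene after BSG, BSG-AS1. Its overlap with BSG was not measured, and the sources used here do not say whether counting used the strand.

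Within a library the ratio of LDHA to LDHB does not depend on library size. In RNA it was 2.63, 2.71 and 2.70 in DMSO and 2.66, 2.91 and 2.93 in AZD0095. In footprints it was 0.457, 0.679 and 0.492 in DMSO and 0.756, 0.641 and 0.649 in AZD0095. In FPKM, LDHA exceeded LDHB in each RNA library and was below it in each footprint library. LDHA made up 72.8% ± 0.317 (SD, n = 3) of the summed LDHA and LDHB FPKM in DMSO RNA and 34.9% ± 4.83 in DMSO footprints. Over both treatments the ratio was 0.219-fold in footprints relative to RNA (two-sided exact permutation p = 0.002165 with 6 libraries per assay, the smallest such a test can give, 0.00433 adjusted over 4 ratios). This contrast of assays was chosen after the values had been seen. The lengths used for FPKM may differ between the assays, which would shift this fold and could by itself separate the assays, and that was not tested. A shift that is the same in both treatments would not enter their comparison, and whether it is the same was not tested. The treatment did not separate the ratio in either assay, with an exact permutation p of 0.3 in RNA and in footprints, where 0.1 is the smallest that 3 against 3 libraries allow.

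The ratio of SLC16A3 to its chaperone gene BSG was nearly the same in each RNA library, between 0.324 and 0.344. In footprints it ran from 0.188 to 0.262, below each RNA library. The ratio in footprints was 0.684-fold that in RNA over both treatments (two-sided exact permutation p = 0.002165, adjusted p = 0.00433, 6 libraries per assay), with the same limit from the unknown lengths. With treatment it did not move past the spread, at geometric means of 0.334 and 0.332 in RNA (exact permutation p = 1.0) and of 0.214 and 0.242 in footprints (exact permutation p = 0.3).

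SLC16A3 RNA exceeded SLC16A7 RNA 25.1, 29.9 and 30.2-fold in DMSO and 32.3, 33.0 and 35.5-fold in AZD0095. The groups did not overlap, and the exact permutation p was 0.1, the smallest possible with 3 libraries per group (0.48 adjusted over 8 tests). Footprints gave 9.77, 29.3 and 14.5-fold in DMSO and 67.5, 17.7 and 60.9-fold in AZD0095, which overlapped (exact permutation p = 0.2). The ratio of LDHB to MPC1 was 13.5 in DMSO and 13.9 in AZD0095 in RNA as geometric means (exact permutation p = 0.6).

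**Figure D4:**
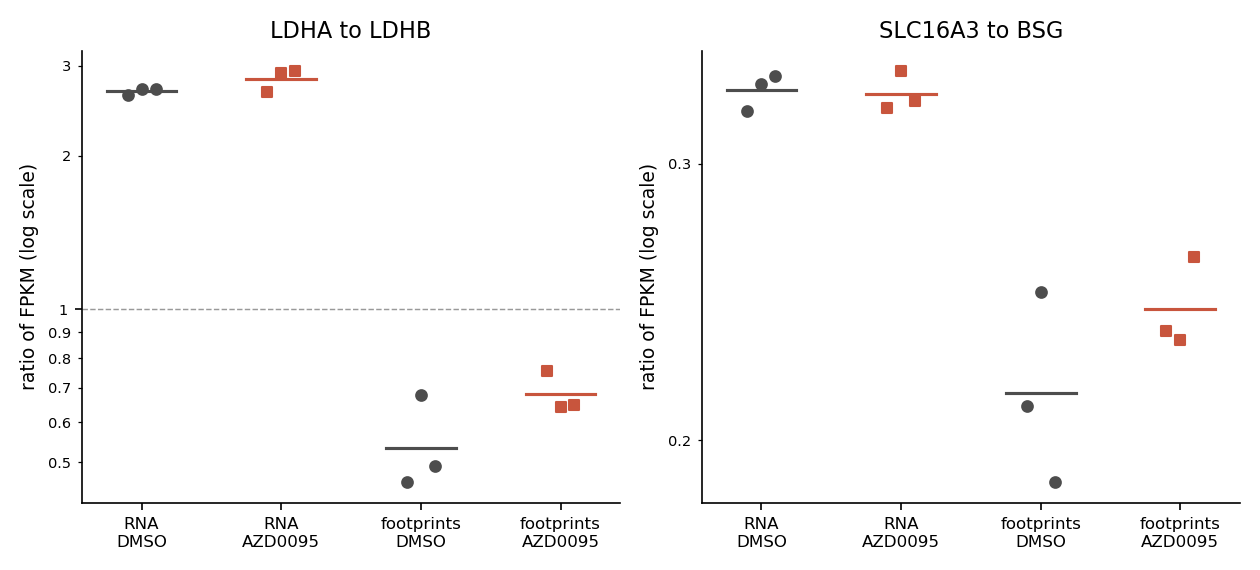
Ratios of FPKM values within each library on a log axis for LDHA to LDHB and SLC16A3 to BSG, with a point for each library by assay and treatment. The LDHA to LDHB ratio is above 1 in the 6 RNA libraries and below 1 in the 6 footprint libraries, and SLC16A3 to BSG is lower in footprints than in RNA.

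Across the 6 RNA libraries the genes whose log2 values followed SLC16A3 most closely were LGALS3BP (Pearson r = 0.995), SEMA6B (0.994) and PIGT (0.994). Those closest to LDHA were MRFAP1 (0.992), ARPC2 (0.987) and SEC23A (0.987). With 6 libraries 72 genes reached an r over 0.95 with SLC16A3 and 41 with LDHA, and the libraries share depth and replicate differences, so these values are a description only.

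The wider lactate network was read from 10 lists with 112 further genes, of which 74 were in the data. Limma called 9 of these in RNA, 8 higher and 1 lower, or 12.2% against 8.04% of all genes, and 0 in footprints and in translational efficiency. At an unadjusted p under 0.05 in limma there were 15 in RNA (20.3%), below the 24.2% of all genes. There were 4 (5.41%) in footprints, against 7.82% of all genes, and 4 (5.41%) in translational efficiency, against 8.53%. With the members counted, limma called 0 of 4 listed monocarboxylate transport genes, 0 of 9 for mitochondrial pyruvate entry, 0 of 6 for proton handling and 0 of 10 basigin partners in RNA, and 0 of these had an unadjusted p under 0.05. NPTN, a basigin relative that can escort monocarboxylate transporters, was at -0.05, PDHB, a pyruvate dehydrogenase subunit, at -0.09, and PPIA, the cyclophilin A that binds basigin, at -0.02.

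In the route from glucose to pyruvate 3 of 17 listed genes rose (17.6%, against 8.04% of all genes called in either direction), and 5 of 17 (29.4%) had an unadjusted p under 0.05, against 24.2% of all genes. The glucose transporter gene SLC2A3 went from 5.92 ± 0.562 to 11.1 ± 0.826 FPKM (SD, n = 3), up by 0.81 on the log2 scale (limma adjusted p = 0.00301). The hexokinase gene HK1 rose by 0.28 (limma adjusted p = 0.0405) and PFKFB3, whose product makes an activator of phosphofructokinase, by 0.39 (limma adjusted p = 0.0145). GAPDH and ENO1, the enolase gene, were at 0.05 and -0.01. SLC2A3 was called without each library in turn. HK1 was lost without any 1 library other than AZD0095 replicate 1 (adjusted p = 0.0892 to 0.143) and PFKFB3 without AZD0095 replicate 2, AZD0095 replicate 3 or DMSO replicate 2 (0.0529 to 0.0881).

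In the list for shuttles that pass the electrons of NADH between cytosol and mitochondria, 2 of 12 listed genes rose (16.7%, against 8.04% of all genes called). The same 2 were the ones with an unadjusted p under 0.05 in limma, a share below the 24.2% of all genes. They were GOT1, the cytosolic aspartate aminotransferase, at 0.37 (limma adjusted p = 0.0293), and SLC25A1, the mitochondrial citrate carrier, at 0.27 (limma adjusted p = 0.0297). MDH1 and MDH2, the malate dehydrogenases, were at 0.05 and 0.04. GOT1 was lost without replicate 2 or 3 of either treatment (adjusted p = 0.0709 to 0.119), and SLC25A1 without any 1 library other than AZD0095 replicate 1 (0.0732 to 0.123).

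Of 12 listed genes for lactate sensing and lactylation, AARS1 rose and KAT5 fell (16.7% called, against 8.04% of all genes). An unadjusted p under 0.05 in limma was found for 4 of the 12 (33.3%), against 24.2% of all genes. AARS1, an alanyl-tRNA synthetase reported to transfer lactate to proteins, went from 45.2 ± 1.42 to 62.1 ± 1.72 FPKM (SD, n = 3), up by 0.45 on the log2 scale (limma adjusted p = 0.00369), and was called without each library in turn. AARS1 is also a gene of amino acid starvation responses. KAT5, an acetyltransferase, fell by 0.37 on the log2 scale (limma adjusted p = 0.013), a call lost without AZD0095 replicate 2 or either of DMSO replicates 2 and 3 (adjusted p = 0.0521 to 0.0695). GLO1, which detoxifies a glycolytic by-product, was at 0.05 in RNA and 0.72 in footprints (limma adjusted p = 0.58 in footprints).

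Of 8 listed regulators of these genes 2 rose, against 8.04% of all genes called in either direction. In limma 4 of the 8 had an unadjusted p under 0.05, against 24.2% of all genes. ARNT, the constant partner of the hypoxia-inducible factors, rose by 0.38 (limma adjusted p = 0.0167) and MAX, the partner of MYC, by 0.30 (limma adjusted p = 0.0303). MYC was at 0.03 and HIF1A at 0.40 (limma adjusted p = 0.12), the latter with a spread of 19.2 FPKM around 90.5 FPKM in AZD0095. HIF1A was at 0.24 without AZD0095 replicate 1, and it was called without replicate 1 of both treatments (0.31, limma adjusted p = 0.00413) and with library weights (0.28, limma adjusted p = 0.00429). ARNT was lost without replicate 2 or 3 of either treatment (adjusted p = 0.0572 to 0.0902), and MAX without any 1 DMSO library or without AZD0095 replicate 2 (0.0585 to 0.139). LDHA and SLC16A3, whose upstream windows hold the most ACGTG sites of the 6 genes, were at 0.08 and 0.09 in RNA and not called. Any link between such sites and the RNA changes was not tested.

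**Figure D5:**
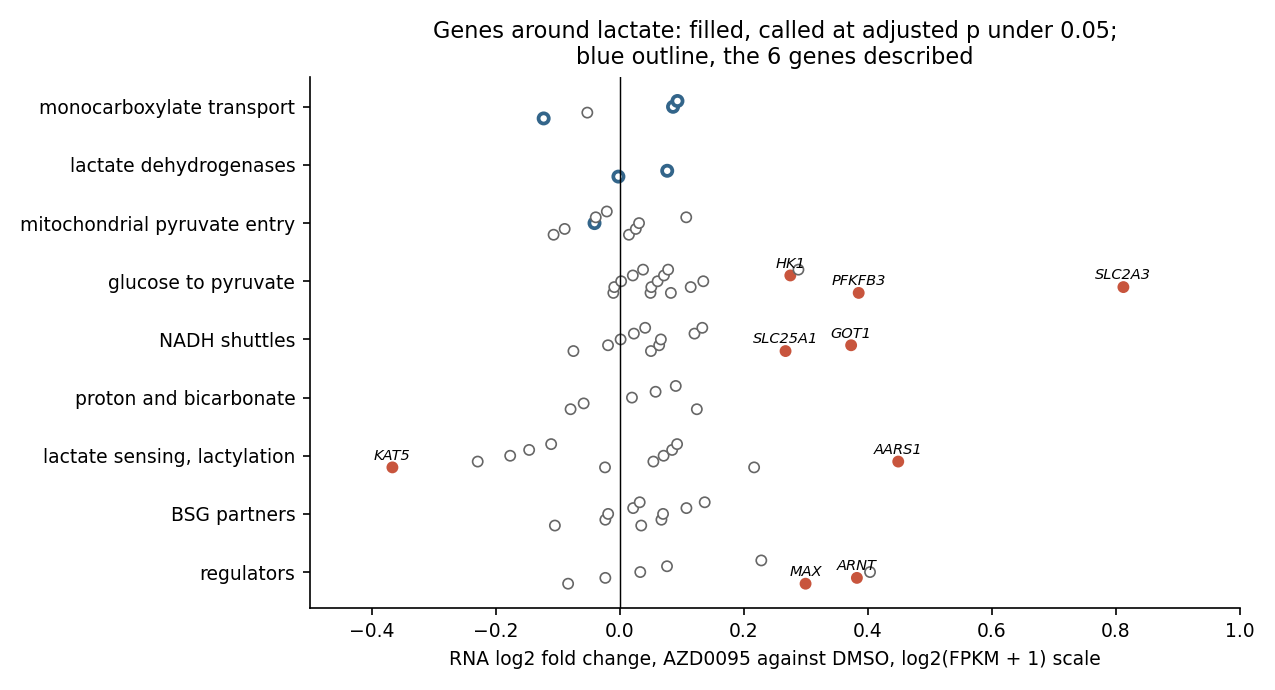
Log2 fold change in RNA of each listed gene in 9 of the 10 lists, with called genes named and filled. The remaining list, of other SLC16 genes, had 0 genes in the data. SLC2A3, at 0.81, and AARS1, at 0.45, are the called genes that kept the call without each library in turn, and KAT5, at -0.37, is the called gene that fell.

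The label of the cells was checked against markers. Of 8 genes chosen as markers of MDA-MB-231, though not particular to it, 7 were listed (VIM, CD44, MSN, ANXA1, S100A4, AXL and CAV1). Their summed RNA was 4943 to 4969 FPKM in DMSO and 5128 to 5362 FPKM in AZD0095. Of 10 luminal epithelial markers 5 were listed (KRT8, KRT18, KRT19, EPCAM and ERBB2), with sums of 592.8 to 621 FPKM in DMSO and 646.2 to 681.4 FPKM in AZD0095. Of the markers of fibroblasts (6), leukocytes (5) and endothelial cells (4), 0 were listed. The data list only genes above 1 FPKM in every library, footprints included, so a marker at a low level would be missing too. Across genes, libraries of the same group had a Pearson r of 0.989 to 0.997 in RNA and of 0.854 to 0.92 in footprints.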

How the data were processed

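RNA-seq and ribosome profiling gave 12 libraries, grouped by their titles and treatment labels. Whether replicates came from separate cultures is not stated, and the p-values therefore rest on a spread between libraries that may be technical. The authors deposited FPKM values per gene, a table for each library. Fastp, Bowtie2, STAR and the build hg38 are named per the submitters' processing notes, and the sources used here give no role or version for them and no counter or annotation. Each table listed 6785 genes, all above 1 FPKM in every library; 8 repeated entries were removed. Of the IDs, 6776 matched a gene name table. Positions and upstream windows came from RefSeq (GRCh38.p14), matched by symbol.

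Values were transformed as log2(FPKM + 1), and genes with a mean of at least 1 FPKM were kept, which removed none. RNA and footprints were each compared between treatments with limma 3.58.1 (R 4.3.3), two-sided, with a trend in the spread. Translational efficiency was tested by the assay by treatment interaction of a limma model fitted to the 12 libraries. P-values were adjusted by Benjamini-Hochberg over 6777 genes and called under 0.05. Ratios within libraries were tested by exact permutation (scipy 1.17.1). Where footprint reads were counted whole, FPKM values are multiples of what 1 read is worth. At a tolerance of 0.1 reads, 1440 genes of any implied length showed such steps. The implied depth was set so that implied lengths came 1 base short of a multiple of 3, an assumption that was not tested. It rests on the 1190 of these genes whose implied lengths met it. Steps tested on simulated data recovered 6 of 6 depths. The simulated lengths were drawn from those 1190 genes, so the assumption on lengths was built in. That checks the procedure only, since simulated data cannot show the true depths of these libraries. The alternatives changed the pseudocount, filter, scaling, trend, library weights, replicate block and the libraries used. Named genes were the 6 genes, each called gene of the lists, the up to 2 uncalled genes of each list with the highest RNA level, and the 3 genes most correlated with SLC16A3 and with LDHA. The genes and lists were chosen with earlier results of these data known. Protein sequences were not used here.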

Additional observations from a re-analysis of the deposited data

How the results depend on the processing

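No member was called under any alternative tried, with adjusted p-values of at least 0.108 in 328 combinations of member, comparison and setting, and 310 of these kept the direction. The number of genes called in RNA, 545, was 3086 with library weights (limma's estimation stopped before it converged), 1622 with the replicate block, 1395 without replicate 1 of both treatments, and 100 (without DMSO replicate 2) to 1112 (without AZD0095 replicate 1) with 1 library left out. It was 280 without DMSO replicate 1, 249 without DMSO replicate 3, 116 without AZD0095 replicate 2 and 214 without AZD0095 replicate 3. For translational efficiency it was 0, against 1 with no trend and 0 to 4 with 1 library left out. Deviations of same-numbered libraries correlated at 0.622, 0.086 and 0.489 in RNA and 0.009, -0.022 and 0.091 in footprints, and not every library correlated best with its own number, so the numbers were not taken to pair the libraries. The block changed no call of a member, but HIF1A, not called otherwise (adjusted p = 0.121), was called with the replicate block (0.00309), as it was without replicate 1 of both treatments (0.00413) and with library weights (0.00429), within 0.00309 to 0.271 over all its alternatives.

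These log2 changes turned direction. With library weights NPTN was 0.038, ATP6V0C -0.016 and MYC -0.019; with quantile normalization ENO1 was 0.056, PPIA 0.024 and BSG footprints 0.045; with median centring the SLC16A3 efficiency was -0.0086. Without replicate 1 of both treatments NPTN was 0.0396 and BSG footprints 0.036. With 1 library left out, the RNA changes ran from -0.082 to 0.046 for LDHB, -0.083 to 0.00098 for MPC1, -0.16 to 0.045 for DLD, -0.025 to 0.0063 for ENO1, -0.038 to 0.13 for GLO1, -0.048 to 0.0092 for PPIA and -0.010 to 0.075 for CD44. Footprint changes ran from -0.013 to 0.196 for SLC16A3, -0.13 to 0.032 for BSG and -0.43 to 1.11 for MPC1, and efficiency from -0.099 to 0.122 for SLC16A3 and -0.39 to 1.15 for MPC1. Ratio differences ran from -0.0301 to 0.0091 for SLC16A3 to BSG in RNA, and for LDHB to MPC1 from -0.016 to 0.081 in RNA and -1.08 to 0.73 in footprints. The cause was not tested. HK1 was also not called with median centring, quantile normalization or no trend (adjusted p = 0.0604, 0.0716 and 0.061, against 0.000316 to 0.143 over all its alternatives). Library weights also brought calls for PDHB, HDAC2 and PPIA (adjusted p = 0.0195, 0.0182 and 0.036, against up to 0.586, 0.977 and 0.943 over their alternatives). In footprints SLC16A7 and MPC1 had the fewest reads per kilobase of the 6 genes and the largest standard errors, 0.67 and 0.75, and the part of counting depth in that spread was not tested.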
